A study of Mus musculus with 24 samples.

Results

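The Ugt, Gst and Sult genes encode the enzymes of phase II conjugation, the step in which a small polar group is joined to a drug, hormone, bile pigment or lipid breakdown product. Members were chosen by symbol alone, as every locus named Ugt1 to Ugt3, Gst of the alpha, mu, pi, theta, kappa, omega or zeta class, or Sult1 to Sult5 followed by a letter and a number. This gave 58 of the 23746 loci in the files, of which 20 are Ugt, 21 Gst and 17 Sult genes. The rule uses no measured value, but it was set with earlier results of these data known.

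UDP-glucuronosyltransferases (Ugt) add a sugar acid or another sugar from a UDP-sugar donor, glutathione S-transferases (Gst) add the tripeptide glutathione, and cytosolic sulfotransferases (Sult) add sulfate from the donor PAPS. The products are more soluble and leave the hepatocyte through export pumps into bile or blood. In rodent liver many of these genes are set by the receptors CAR, PXR and AHR, by the stress factor NRF2, and by the pattern of growth hormone secretion that differs between the sexes. FoxO1 is a transcription factor of the fasted liver that insulin signalling keeps out of the nucleus after a meal.

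Liver mRNA was sequenced from C57BL/6 mice with FoxO1 present or deleted in hepatocytes, as 24 libraries in 8 groups of 3. In the acute model, FoxO1lox/lox mice received AAV8.TBG.Cre or AAV8.TBG.eGFP through the tail vein, with Cre or green fluorescent protein driven by the hepatocyte promoter TBG, and livers were collected on day 21. These groups are called Cre and GFP, and all 4 of them carry floxed alleles and virus. In the constitutive model, KO mice, labelled FoxO1-/-, came from a cross of floxed mice with an albumin-promoter Cre transgene, which acts in hepatocytes, and the WT controls were FoxO1lox/lox, so that all controls of the study carry floxed alleles. Their labels name no virus. Livers were taken after a 4 h fast or after a 4 h fast and 1 h of refeeding. Age and sex are not given in the labels, and they do not say whether each library is its own animal. The p-values therefore speak of the spread among these libraries, which may be technical.

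Values are FPKM, that is, sequenced fragments relative to the length of the transcript and to all fragments mapped in a library, so levels may be compared between genes. Foxo1 was at 0.212 to 0.571 FPKM in the 12 knockout libraries and at 4.21 to 6.81 in the 12 controls. Depth relative to the mean library was 1.10 to 1.27 in the constitutive model. In the acute model it was 1.16 to 1.37 in 4 libraries (GFP fasted 3, Cre fasted 1, GFP refed 3 and Cre refed 1) and 0.549 to 0.667 in the other 8. The 6 hepatocyte markers summed to 48121 to 69649 FPKM, and 3 kidney markers stayed below 1. Xist was at most 0.0372 in every library. The Y-linked genes Ddx3y and Eif2s3y were lowest in constitutive KO refed 2 (2.99 and 12.9 FPKM), below the other 23 libraries (at least 4.94 and 21.3). Some of the results that rest on KO refed 2 are also given without it. The part of the Y-linked genes' levels in any result was not tested. Library 2 of the GFP refed group stood apart in several members, described further on, and calls that rest on it are given without it.

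The liver held these genes at very different levels. Of the 58 members, 39 were at FPKM 1 or more in all 24 libraries, 17 averaged 100 or more, and 10 were below 1 in every library. Sult1c1 was listed at 0 throughout. Together the members made up 1.11% ± 0.0813 (SD over 24 libraries) of the summed FPKM, with a range of 0.990% to 1.36%. The Gst genes took most of it, with a summed level of 4352 ± 451 FPKM, against 1889 ± 213 for Ugt and 308 ± 94.1 for Sult (SD, n = 24).

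Gsta3, an alpha-class glutathione transferase, was the highest member at a mean of 1087 FPKM over 24 libraries, with a range of 797 to 1423. The mu-class Gstm1 followed at 927 (720 to 1233) and the pi-class Gstp1 at 646 (233 to 1128). Among the Ugt genes, Ugt2b5 led at 382 (285 to 509), ahead of Ugt2b36 at 313 (247 to 371) and Ugt2b1 at 212 (128 to 331). Sult1a1, which sulfates phenols, was the one abundant sulfotransferase at 227 (155 to 336). Sult1d1, whose substrates include catecholamines, averaged 35.9 and Sult5a1 12.2. The ranges of Gsta3, Gstm1 and Gstp1 overlapped, as did those of Ugt2b5, Ugt2b36 and Ugt2b1, whereas all values of Sult1a1 lay above those of Sult1d1. Gstz1, an enzyme of tyrosine breakdown, averaged 394 and stayed between 343 and 475.

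**Figure D1:**
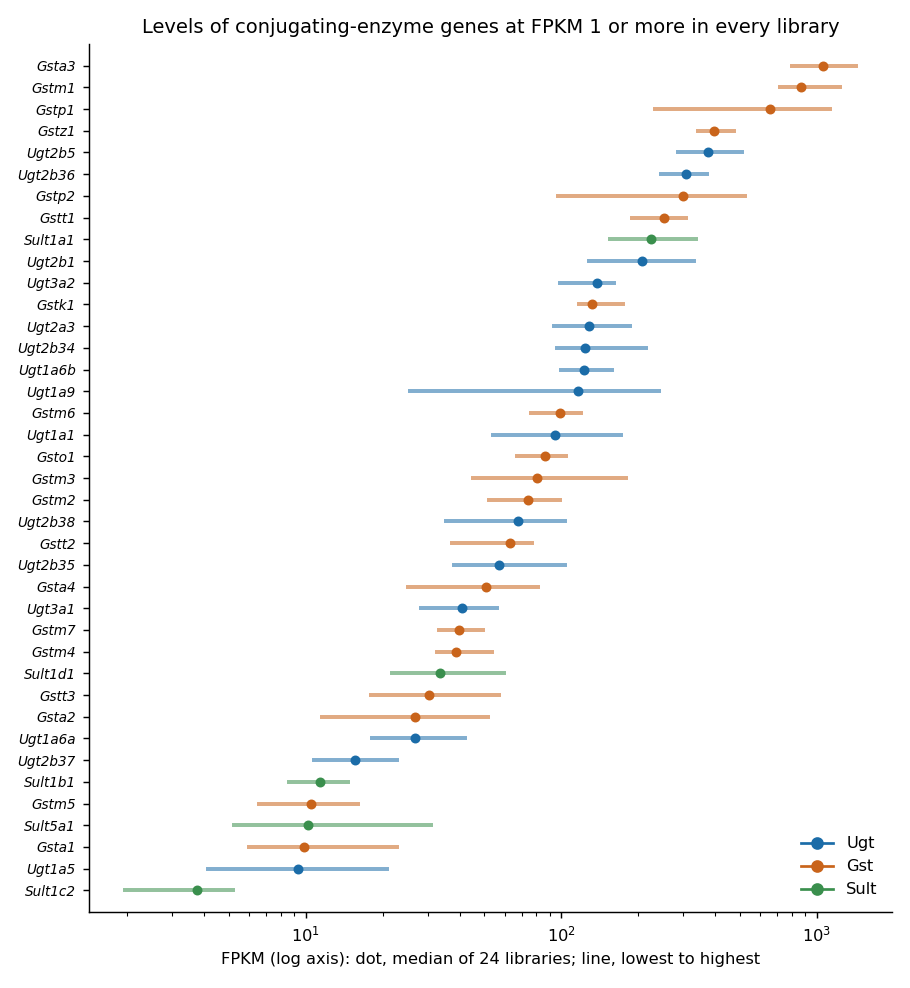
Median (dot) and range (line) of FPKM over 24 libraries, on a log axis, for the 39 members at FPKM 1 or more in every library, coloured by family. Gsta3, Gstm1 and Gstp1 head the list, and the widest lines among the abundant genes are those of Ugt1a9 (25.5 to 242), Gstp1 and Gstp2.

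The spread between libraries of one group was wider for the members than for genes at large. The within-group SD of log2(FPKM + 1) had a median of 0.24 over the 43 members kept for testing, against 0.145 over all 10682 genes kept. Among genes whose mean was at or above FPKM 10 on that scale, it was 0.201 for 36 members and 0.132 for 3964 genes. Sult1e1, the oestrogen sulfotransferase, was the most variable member at 1.25, followed by Ugt1a9 at 0.835. Gstz1 at 0.078 and Ugt2b36 at 0.085 were the steadiest.

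FoxO1 deletion was first examined as the mean of the 4 knockout minus control differences, acute and constitutive, fasted and refed, in 1 limma model of 24 libraries on log2(FPKM + 1). Differences on this scale understate the change of low genes. A gene had to reach FPKM 1 in 3 libraries to be tested, which 43 members did, and it was called at a Benjamini-Hochberg adjusted p under 0.05 over all genes tested. Of the 43 members 6 were called, where 3.14% of all genes tested were. Sult1d1 was lower, and Gstm3, Ugt2b5, Ugt2b37, Gstm2 and Ugt2b35 were higher. The median difference over the 43 members was 0.06, against 0.00 over all genes, and 25 members lay above 0.

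Sult1d1 was lower with FoxO1 deleted in every one of the 4 comparisons. It was at 55.7, 59.6 and 43.8 FPKM in GFP fasted livers and at 26.5, 30.9 and 38.9 in Cre fasted livers. In the refed state it was at 48.8, 58.6 and 40.2 with GFP and at 21.7, 36.2 and 24.9 with Cre, so that the acute groups did not overlap in either state. Constitutive WT livers had 25.4, 44.7 and 33.8 fasted and 33.0, 37.0 and 46.1 refed, and KO livers 27.7, 22.0 and 29.3 fasted and 24.2, 24.1 and 29.2 refed. These overlapped only in the fasted state. The mean difference was -0.61 ± 0.11 (SE; 95% interval -0.83 to -0.39; limma adjusted p = 0.00187), lower in 4 of 4 comparisons. Sult1d1 was called whichever single library was left out, with limma adjusted p between 0.000794 and 0.00526. It also remained called without GFP fasted 1 and GFP refed 2 together (limma adjusted p = 0.00827).

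Gstm3, a mu-class transferase, was higher with FoxO1 deleted in the acute model. Its level was 52.2, 45.2 and 51.5 FPKM in GFP fasted livers and 111, 92.7 and 150 in Cre fasted livers. Refed, it was 85.9, 49.8 and 50.3 with GFP and 116, 179 and 115 with Cre, with no overlap in either state. In the constitutive model KO and WT overlapped in both states, at means of 71.3 FPKM in WT and 76.2 in KO fasted livers and 80.8 and 89.9 refed, where the KO values were 139, 82.8 and 47.6. The mean difference was 0.61 ± 0.15 (SE; limma adjusted p = 0.0287), higher in 4 of 4 comparisons, but the constitutive ones came to 0.08 and 0.02. The acute and constitutive effects differed by 1.13 fasted and 1.12 refed, and neither difference passed (limma adjusted p = 0.484 and 0.400). Its neighbour Gstm2 had a mean difference of 0.29 ± 0.08 (SE; limma adjusted p = 0.0368), higher in 4 of 4 comparisons. No pair of Gstm2 groups was free of overlap, with means of 63.5 ± 8.62 against 83.1 ± 10.8 FPKM in the fasted acute livers and 61.8 ± 11.8 against 83.9 ± 7.88 in the refed ones (SD, n = 3).

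The higher calls included 3 genes of the Ugt2 cluster on chromosome 5, whose enzymes glucuronidate steroids and drugs. Ugt2b5 lies at 87124947 to 87140340 of mouse build mm10, Ugt2b37 at 87240492 to 87254788 and Ugt2b35 at 87000860 to 87013274. Sult1d1 lies beyond the end of the same cluster, at 87554650 to 87569006. The 250 bases upstream are shown for the 3 called genes and for Ugt2b38, the closest copy of Ugt2b5, chosen with their matches to the FoxO element known. Of the 6 Ugt2 genes in which every Cre value lay above every GFP value in both states, 3 hold the element. Sequences are from RefSeq on GRCm38.p6, written 5′ to 3′ along the gene's strand, with each match to the FoxO element GTAAACA in capitals. They are chr5:87140341-87140590 (minus strand) for Ugt2b5, chr5:87254789-87255038 (minus) for Ugt2b37, chr5:87424204-87424453 (minus) for Ugt2b38 and chr5:87000610-87000859 (plus) for Ugt2b35.
Ugt2b5: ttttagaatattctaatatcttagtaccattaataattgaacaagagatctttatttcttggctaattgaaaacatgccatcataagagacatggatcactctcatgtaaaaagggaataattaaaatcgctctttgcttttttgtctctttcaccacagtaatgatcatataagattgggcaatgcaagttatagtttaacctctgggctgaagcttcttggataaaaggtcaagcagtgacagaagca
Ugt2b37: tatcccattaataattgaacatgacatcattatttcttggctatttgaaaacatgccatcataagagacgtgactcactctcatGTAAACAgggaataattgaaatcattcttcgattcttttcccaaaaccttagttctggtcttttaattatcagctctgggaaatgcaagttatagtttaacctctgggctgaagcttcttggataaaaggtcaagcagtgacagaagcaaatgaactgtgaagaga
Ugt2b38: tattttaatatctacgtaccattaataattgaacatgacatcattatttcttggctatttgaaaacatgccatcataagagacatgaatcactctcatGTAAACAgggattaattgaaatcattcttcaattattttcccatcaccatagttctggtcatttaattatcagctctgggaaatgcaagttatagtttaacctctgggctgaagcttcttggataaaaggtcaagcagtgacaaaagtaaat
Ugt2b35: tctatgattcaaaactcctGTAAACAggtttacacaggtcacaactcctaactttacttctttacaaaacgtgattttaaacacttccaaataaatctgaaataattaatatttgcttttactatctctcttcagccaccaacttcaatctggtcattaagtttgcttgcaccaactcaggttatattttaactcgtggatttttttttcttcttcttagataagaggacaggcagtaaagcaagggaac
The Ugt2b37 and Ugt2b38 sequences were identical at 90% of 250 aligned bases, Ugt2b5 and Ugt2b38 at 84.8%, and Ugt2b5 and Ugt2b37 at 80%. Ugt2b35 matched the others at 66% to 67.2%. The element stood 166 bases before the start in Ugt2b37, 152 in Ugt2b38 and 231 in Ugt2b35, while Ugt2b5 had at best 6 of the 7 letters.

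Promoters from 250 bases before to 50 after the start were found for 50 of the 58 members. GTAAACA, read on both strands, occurred in 5 of them (10%) and in 4.05% of 27025 genes. The 5 are not independent promoters, since Ugt2b37 and Ugt2b38 were identical at 90% of the 250 upstream bases. Their neighbour Ugt2b35 was also among the 5. The other 2 were Ugt1a2, 45 bases before the start, and Sult1d1, 33 bases after it. The antioxidant response element TGACNNNGC, which NRF2 binds, occurred in 3 members (6%; Gsta3, Gstm5 and Gstm7) and in 14% of genes. The AHR core GCGTG occurred in 9 (18%) against 35.2%, and the STAT5 element TTCNNNGAA in 4 (8%) against 9.55%. The antioxidant element of Gstm5 can overlap the AHR core, and a match of letters is not a bound site.

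Ugt2b5 had 297, 379 and 337 FPKM in GFP fasted livers and 448, 477 and 438 in Cre fasted livers. In the refed state it had 381, 288 and 304 with GFP and 437, 495 and 509 with Cre, so every Cre value lay above every GFP value of its state. In the constitutive model it was higher in KO when fasted (386 ± 21.9 against 340 ± 45.0, SD, n = 3, with no overlap) but not when refed (352 ± 58.7 against 383 ± 29.5). The mean difference was 0.27 ± 0.06 (SE; limma adjusted p = 0.0287), higher in 3 of 4 comparisons.

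Ugt2b37, the lowest of the 3 at a mean of 16.0 FPKM, also had every Cre value above every GFP value of its state. It had 11.6, 15.2 and 13.2 FPKM in GFP fasted and 18.6, 19.8 and 18.8 in Cre fasted livers, then 17.4, 12.5 and 13.6 in GFP refed and 19.8, 20.7 and 22.7 in Cre refed livers. Its mean difference was 0.27 ± 0.07 (SE; limma adjusted p = 0.0330), higher in 3 of 4 comparisons. Ugt2b35 had 48.0, 56.6 and 46.7 FPKM in GFP fasted and 72.8, 72.4 and 68.9 in Cre fasted livers. Refed, it had 73.4, 51.2 and 55.1 with GFP and 82.2, 103 and 104 with Cre, and its mean difference was 0.30 ± 0.08 (SE; limma adjusted p = 0.0485), higher in 3 of 4 comparisons. In the constitutive refed livers all 3 genes had lower means in KO than in WT, with differences of -0.13, -0.18 and -0.19 for Ugt2b5, Ugt2b37 and Ugt2b35. KO refed 2 was the lowest KO refed library for each (285, 10.7 and 41.5 FPKM), and without it the differences were 0.01, -0.02 and -0.10.

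**Figure D2:**
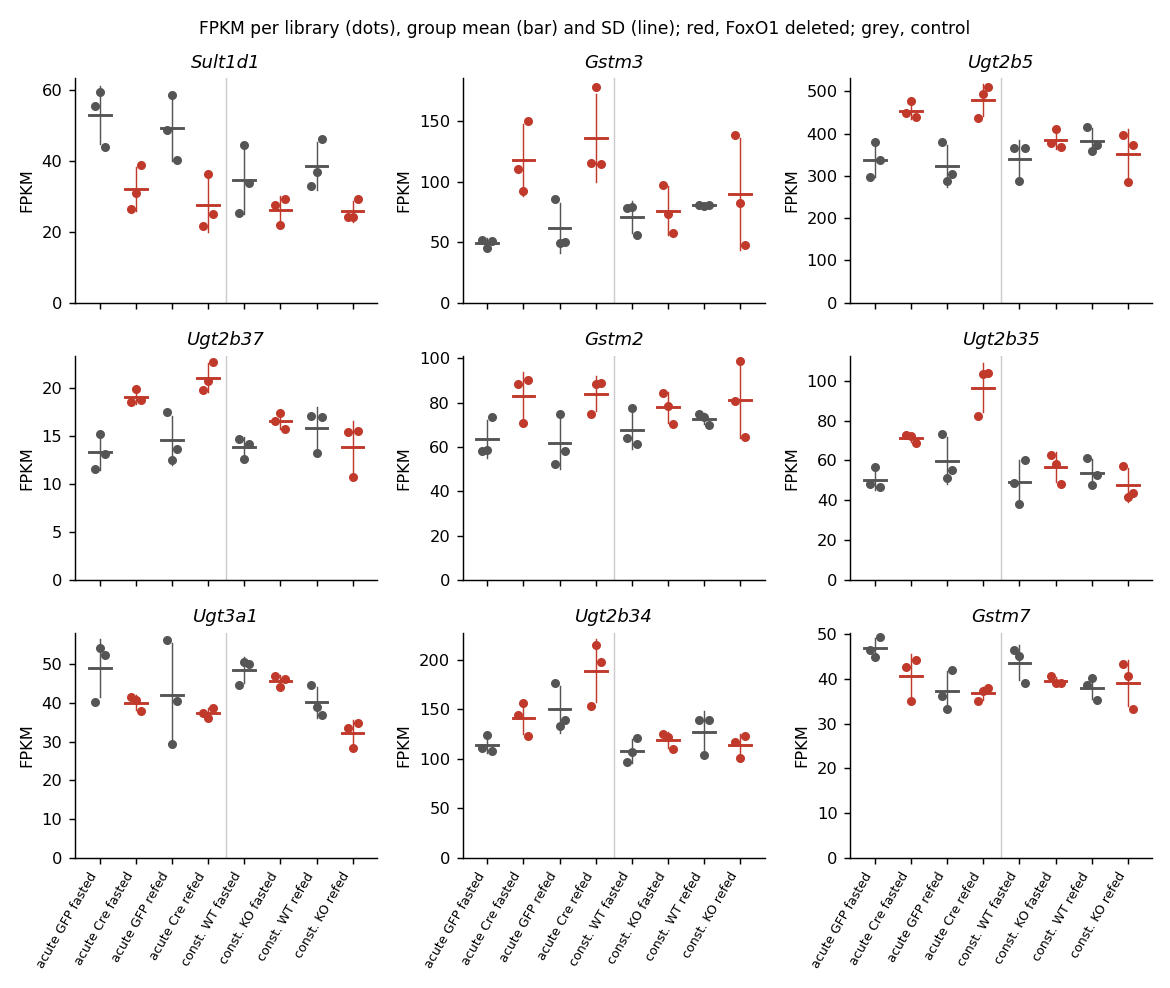
FPKM of the 9 members called for the mean knockout or mean refeeding effect, by group, with each library as a dot, the group mean as a bar and the SD as a thin line; red marks FoxO1 deletion and grey the controls. Sult1d1 lies lower in red than in grey in all 4 pairs, while Gstm3, Ugt2b5, Ugt2b37 and Ugt2b35 separate in the acute model on the left of each panel.

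The 5 higher calls were less secure than that of Sult1d1. Gstm3 was called in 19 of 24 fits that each left out 1 library, Ugt2b5 in 15, Ugt2b37 in 11, Ugt2b35 in 8 and Gstm2 in 7. Gstm3 was lost without Cre fasted 3, GFP refed 2, GFP refed 3, WT fasted 3 or KO fasted 1, with limma adjusted p up to 0.0582. Ugt2b5 was lost without GFP fasted 1, Cre fasted 2, GFP refed 2, GFP refed 3, Cre refed 3, WT fasted 2, KO fasted 2, WT refed 2 or KO refed 1 (limma adjusted p up to 0.0597). Ugt2b37 kept its call without GFP fasted 2, Cre fasted 1, Cre fasted 3, GFP refed 1, Cre refed 1, Cre refed 2, WT fasted 1, KO fasted 3, WT refed 1, WT refed 3 or KO refed 2. Ugt2b35 kept it without GFP fasted 2, GFP refed 1, Cre refed 1, WT fasted 3, KO fasted 3, WT refed 1, KO refed 2 or KO refed 3. Gstm2 kept it without GFP fasted 3, Cre fasted 2, GFP refed 2, Cre refed 1, WT fasted 2, KO fasted 3 or KO refed 3. Left out elsewhere, a library took these 3 to a limma adjusted p of up to 0.0664, 0.0949 and 0.0743. Sult1d1 was the one member called without GFP refed 3 (2.59% of all genes) and with the 8 shallower acute libraries alone in that model (1.72%). It was also the one member called when no FPKM filter was set (1.37%). Without GFP fasted 1 and GFP refed 2 together 3 members were called, Gstm2, Sult1d1 and Ugt3a1, where 2.69% of all genes were. Without KO refed 2 the number called was again 6, where 2.36% of all genes were. Ugt2b38 was then called higher (0.31; limma adjusted p = 0.0331, against a difference of 0.24 with all libraries), and Gstm2 was not called (limma adjusted p = 0.0641).

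Taken one comparison at a time, no member was called for FoxO1 deletion. In the acute fasted livers 0 of 43 members were called, where 0.297% of all genes were, and 10 had an unadjusted p under 0.05, as 12.3% of genes did. In the acute refed livers it was also 0 of 43, with a background of 0.105%, and 20 had an unadjusted p under 0.05, as 9.09% of genes did. The smallest adjusted p-values were those of Gstm3 fasted (difference 1.21 ± 0.24, SE; limma adjusted p = 0.0664) and Ugt2b35 refed (0.69 ± 0.14; limma adjusted p = 0.113). With GFP refed 1 left out, when 0.634% of all genes were called, 6 members passed in the refed comparison, namely Gstm3, Gstp1, Ugt2b35, Ugt2b37, Ugt2b38 and Ugt2b5, all of them higher.

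Counting groups that did not overlap gives another view of the acute model. When fasted, 11 members were higher in all Cre than in all GFP livers and 2 were lower, where 9.15% and 9.55% of all genes were. When refed, 11 were higher and 5 lower, with backgrounds of 6.17% and 6.51%. In both states 9 members were higher (Gstm3, Gstp1, Gstp2, Ugt2a3, Ugt2b35, Ugt2b36, Ugt2b37, Ugt2b38 and Ugt2b5), where 1.17% of genes were, and Sult1d1 was lower, where 1.62% were. Leaving out GFP fasted 1 and GFP refed 2 cannot take a member from this count. The same 9 were then higher in both states, and the background rose to 2.64% of all genes. Of the 9, 6 are Ugt2 genes of chromosome 5. Ugt2b5, Ugt2b38 and Ugt2b37 share sequence, so that their values are not independent: 41.7%, 37.4% and 18.3% of their 50-base windows occurred in another member. The share was 3.77% for Ugt2a3, 0.31% for Ugt2b36 and 0% for Ugt2b35.

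The other abundant genes of that cluster had the same direction with smaller or more variable differences. Ugt2b36 averaged 308 ± 19.3 FPKM in GFP and 355 ± 14.5 in Cre fasted livers, and 306 ± 7.19 and 347 ± 23.9 refed (SD, n = 3). Ugt2b38 averaged 61.4 ± 7.72 and 84.3 ± 8.94 fasted and 60.8 ± 12.9 and 97.4 ± 6.21 refed. Ugt2b1, with overlap in both states, had a difference of 0.46 ± 0.21 fasted and 0.69 ± 0.21 refed (SE; limma adjusted p = 0.409 and 0.291). Sult1b1, which lies between the Ugt2 genes and Sult1d1, had differences on both sides of 0.

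**Figure D3:**
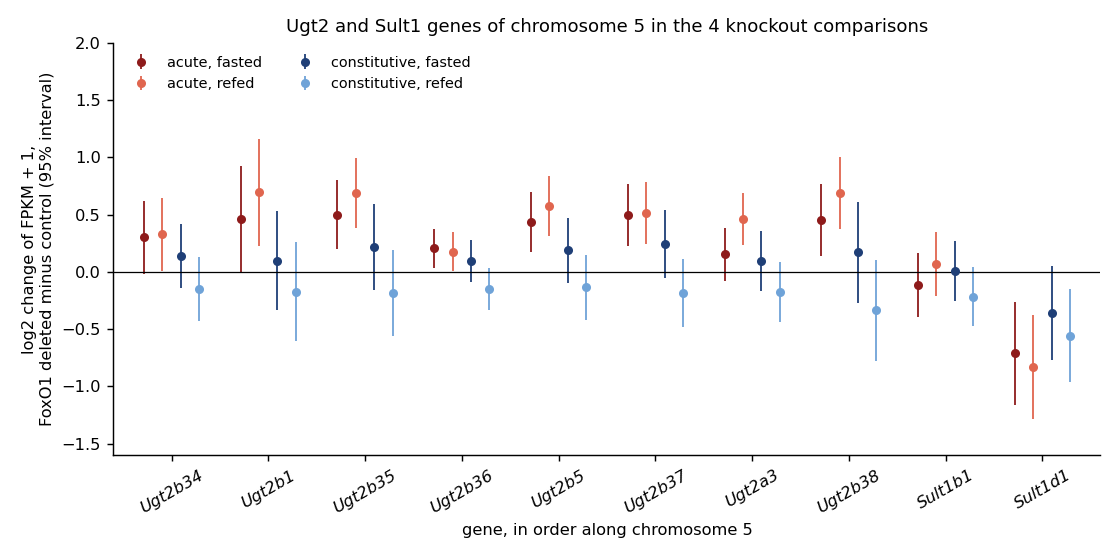
Difference in log2(FPKM + 1), FoxO1 deleted minus control, with its 95% limma interval, for the tested Ugt2 and Sult1 genes of chromosome 5 in their order along it; Sult1e1 is left out because its interval spans -5.71 to -0.62 in the acute refed livers. The 8 Ugt2 genes lie above 0 in both acute comparisons and below 0 in the constitutive refed one, where Ugt2b5 and Ugt2b1 come to 0.01 and 0.04 without KO refed 2; Sult1d1 lies below 0 in all 4.

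In the constitutive model 0 of 42 members were called for deletion when fasted (background 0.0964%) and 0 of 42 when refed (0.0289%). At an unadjusted p under 0.05 there were 1 and 3 members, against 6.56% and 10.8% of genes. Fasted, Ugt2b37 and Ugt2b5 were higher in all KO than in all WT livers, where 7.52% of genes were, and no member was lower in all, where 4.64% were. Refed, Gstz1 was higher, where 6.8% of genes were, and Gsta2, Gsto1, Sult1d1, Ugt2b36, Ugt3a1 and Ugt3a2 were lower, where 8.5% were. No member was apart in the same direction in both states, where 1.03% of genes were higher and 1.12% lower. Without KO refed 2 the refed difference was -0.51 for Sult1d1, -0.22 for Ugt3a1, -0.52 for Gsta2 and -0.27 for Gsto1. That of Ugt2b36 went from -0.15 to -0.05 and that of Ugt3a2 from -0.23 to -0.08. None of these was called. The smallest adjusted p fasted was that of Sult1c2 (0.36; limma adjusted p = 0.713), and refed that of Ugt3a1 (-0.31; limma adjusted p = 0.396).

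Whether deletion acted differently in the models was tested directly. The acute effect minus the constitutive effect was called for 0 of 43 members when fasted and 0 of 43 when refed, as for all genes (0% in both). At an unadjusted p under 0.05 there were 2 members fasted, where 7.85% of genes were, and 14 refed, where 10.9% were. Refed, the difference for Ugt2b5 was 0.71 ± 0.18 (SE; 95% interval 0.32 to 1.09; limma adjusted p = 0.293), and for Ugt2b38 it was 1.03 ± 0.26 (0.47 to 1.58; limma adjusted p = 0.293). Both rest in part on KO refed 2. Without that library the constitutive refed effect went from -0.13 to 0.01 for Ugt2b5 and from -0.34 to -0.07 for Ugt2b38, so both model differences are smaller without it. The acute and constitutive controls themselves differed in level in some members. Fasted, 7 members were higher in all GFP than in all WT livers (8.35% of genes) and 3 lower (6.75%), and refed 2 were higher (16.9%) and 5 lower (4.04%). Gstp1 was among the lower ones in both states, and so was Gstm1. Gstp1 was at 233, 393 and 428 FPKM in GFP fasted against 1048, 435 and 720 in WT fasted livers. Refed, it was at 655, 234 and 302 against 753, 1017 and 785, a difference of -1.23 ± 0.32 (SE; limma adjusted p = 0.0658). No member was called between controls, fasted (0.103% of genes) or refed (0.946%), and virus, line and model cannot be told apart there. At an unadjusted p under 0.05 there were 9 members fasted (11.7% of genes) and 4 refed (18.8% of genes). Of the refed comparison 3 members were called when GFP refed 1 was left out, where 0.985% of genes were.

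Gstp1 and Gstp2, the pi-class pair on chromosome 19, kept a nearly fixed ratio. Gstp1 averaged 351 ± 104 FPKM in GFP and 554 ± 57.9 in Cre fasted livers, and 397 ± 226 and 879 ± 216 refed (SD, n = 3). The acute differences were 0.70 ± 0.34 and 1.26 ± 0.34 (SE; limma adjusted p = 0.452 and 0.240). The ratio of Gstp1 to Gstp2 stayed between 1.99 and 2.41 in all 24 libraries, while their sum ranged from 330 to 1654 FPKM. Since 51% of the 50-base windows of Gstp1 occur in Gstp2, the split between them is uncertain.

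Refeeding for 1 h called a smaller share of these genes than of all genes. In the mean of the 4 refed minus fasted differences, 3 of 43 members were called, where 30.3% of all genes tested were. The median member difference was -0.06, against 0.04 over all genes. Without regard to sign, the median difference was 0.095 over the members and 0.106 over all genes. The spread within groups was wider for the members, as given above. Ugt3a1, which uses the sugar donor UDP-N-acetylglucosamine, fell in the mean of 4 comparisons by 0.28 on the log2 scale (SE 0.08; limma adjusted p = 0.0109), lower in 4 of 4. Ugt2b34 rose by 0.24 ± 0.07 (SE; limma adjusted p = 0.0161), higher in 3 of 4, and Gstm7 fell by 0.17 (SE 0.05; limma adjusted p = 0.0167), lower in 4 of 4. All 3 were called whichever single library was left out. Under median-of-ratios scaling 8 members were called, where 29.8% of all genes were, and the 5 added were lower on refeeding (Gstk1, Gstm6, Gstt2, Gstz1 and Ugt3a2). With the 8 shallower acute libraries alone, Ugt3a1 missed the threshold (limma adjusted p = 0.0609).

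In constitutive KO livers Ugt3a1 was at 47.0, 44.2 and 46.2 FPKM fasted and at 33.6, 28.4 and 34.8 refed, with no overlap. This was the 1 member of 42 called there, a difference of -0.50 ± 0.10 (SE; limma adjusted p = 0.0201), where 5.68% of all genes were called. It was lost without KO fasted 1, KO fasted 2 or KO refed 2, with limma adjusted p up to 0.0812; without KO refed 2 the difference was -0.41 (limma adjusted p = 0.0733). The WT livers had 44.6, 50.7 and 50.2 fasted and 44.8, 38.9 and 37.0 refed, and overlapped. The interaction of feeding with deletion was called for 0 of 42 members in this model (0% of genes) and for 0 of 43 in the acute model (0.0287%). At an unadjusted p under 0.05 there were 1 and 0 members, against 4.4% and 6.6% of genes.

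Ugt2b34 was at 110, 124 and 108 FPKM in GFP fasted and 176, 133 and 140 in GFP refed livers, with no overlap. In Cre livers it was at 144, 156 and 123 fasted and 154, 215 and 197 refed, where the lowest refed value lay within the fasted range. Gstm7 was at 46.6, 44.9 and 49.4 in GFP fasted and 36.3, 33.4 and 42.1 in GFP refed livers, also with no overlap. No member was called for refeeding in acute controls (6.56% of genes), acute knockouts (5.44%) or constitutive controls (0.318%), where 3, 7 and 2 had an unadjusted p under 0.05. Those counts are below the 23.8%, 24% and 15.6% of all genes at that p. The smallest adjusted p-values there were those of Gstm7 (-0.33; limma adjusted p = 0.0836), Gstk1 (-0.32; limma adjusted p = 0.0881) and Ugt3a1 (-0.27; limma adjusted p = 0.224). By groups free of overlap, 1 member was higher (19.9% of genes) and 2 lower (7.23%) in acute controls. In acute knockouts 3 were higher (23%) and 6 lower (7.39%), the 6 being a larger share than that of all genes. In constitutive controls 2 were higher (10.2%) and 0 lower (9.51%), and in constitutive knockouts 2 were higher (13.1%) and 4 lower (17.2%). Leaving out GFP refed 3 added Gstm7 in acute controls. Markers of some non-hepatocyte cells were called higher in the mean refeeding effect, namely 6 of 7 stellate, 4 of 7 sinusoidal endothelial and 2 of 6 Kupffer markers. Of all genes 30.3% were called in either direction, and the Kupffer share is near that. No cholangiocyte or lymphocyte marker was called in that effect. In constitutive knockouts the endothelial marker Fcgr2b was called lower on refeeding (-0.39; limma adjusted p = 0.0406). The part of these markers in the results for members was not tested. In bulk liver, fewer cells of a type and less RNA per cell cannot be told apart.

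One control library stood apart in the sulfotransferases. GFP refed 2 was the highest of 24 libraries for 10 members, 9 of them Sult genes. Among these, Sult2b1 (0.213 FPKM) and Sult2a3 (0.152) were close to 0 even there, while Sult1c2 was lowest in this library (1.96). The share of all genes highest in it was not counted. Sult2a2, a hydroxysteroid sulfotransferase that is female-biased in mouse liver, was at 85.1 FPKM there and at most 0.209 in the other 23. Sult2a1 was at 22.7, Sult2a5 at 8.22 and Sult2a4 at 3.70 in it, and these copies share sequence with Sult2a2. Sult1e1 was at 89.9, and the next library, GFP fasted 1, had 13.5. Sult3a1, also female-biased, was at 49.0 in GFP refed 2 and 9.67 in GFP fasted 1, and at most 0.403 in the other 22. The summed Sult level of the GFP refed group was 435 ± 196 FPKM (SD, n = 3; 283 to 657), against 223 ± 15.3 with Cre.

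The same libraries differed in other genes. Lcn2, an acute-phase gene, was at 177 FPKM in GFP refed 2 and at most 23.8 in the other 23, and Saa1 was at 717 there but also at 619 in Cre refed 1 and 342 in WT refed 2. Hsd3b5, a male-specific steroid enzyme, was lowest there at 2.72, and was 11.7 in GFP fasted 1, 8.26 in GFP refed 3 and 9.24 in the knockout library Cre fasted 3, where the median library had 74.7. The female-biased Cyp2b13 was at 55.7, 62.4 and 93.3 in GFP fasted 1, GFP refed 2 and GFP refed 3, with a median of 0.529 over 24 libraries. Gstp1 was lowest in GFP fasted 1 (233), GFP refed 2 (234) and GFP refed 3 (302). Over the lists, 15 of 15 male-biased genes lay above 0 in the acute refed deletion effect with a median difference of 1.29, and 2 of 13 female-biased genes did, with a median of -1.39. The corresponding median was 0.07 over the 43 members, and the part of sex-biased expression in their differences was not tested.

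**Figure D4:**
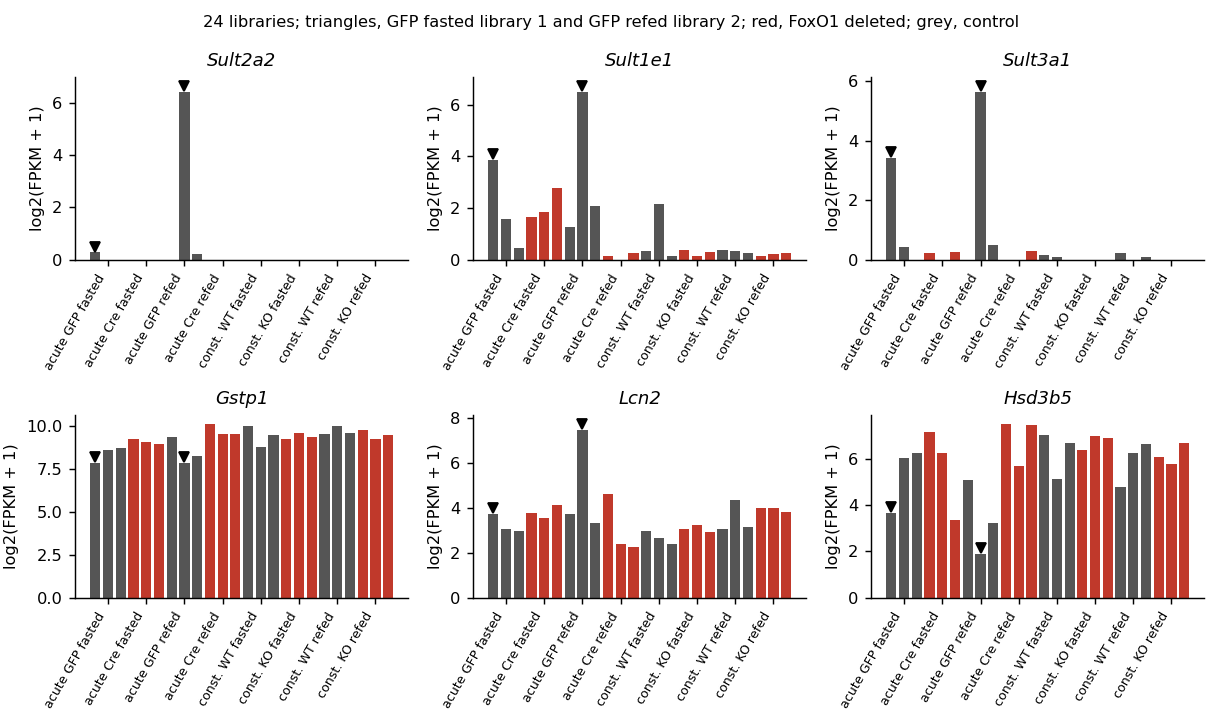
log2(FPKM + 1) of 4 members and of Lcn2 and Hsd3b5 in each of the 24 libraries, in group order with 3 bars per group; red marks FoxO1 deletion, grey the controls, and triangles GFP fasted library 1 and GFP refed library 2. Sult2a2 is high in 1 library, Sult3a1 in 2, and Hsd3b5 is low in both marked libraries, as in GFP refed 3 and Cre fasted 3.

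At the Ugt1a locus on chromosome 1 the sum varied less than its parts. Its 8 members in the files join different first exons to the same shared exons. Their sum ranged from 321 to 480 FPKM over 24 libraries, or 1.495-fold. Ugt1a6b came close to that with a 1.58-fold range. Ugt1a9 alone ranged 9.48-fold, from 25.5 to 242, and Ugt1a1, the bilirubin-conjugating enzyme, 3.16-fold, from 54.1 to 171. The lowest Ugt1a9 and the highest Ugt1a1 were in the same library, constitutive WT refed 1. Among the members' 50-base windows, 62% of those of Ugt1a9 and 58.2% of those of Ugt1a1 occurred in another member. Over all members, 22 of 58 shared more than 10% of their windows with another and 26 shared none. No Ugt1a gene was called in any comparison.

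**Figure D5:**
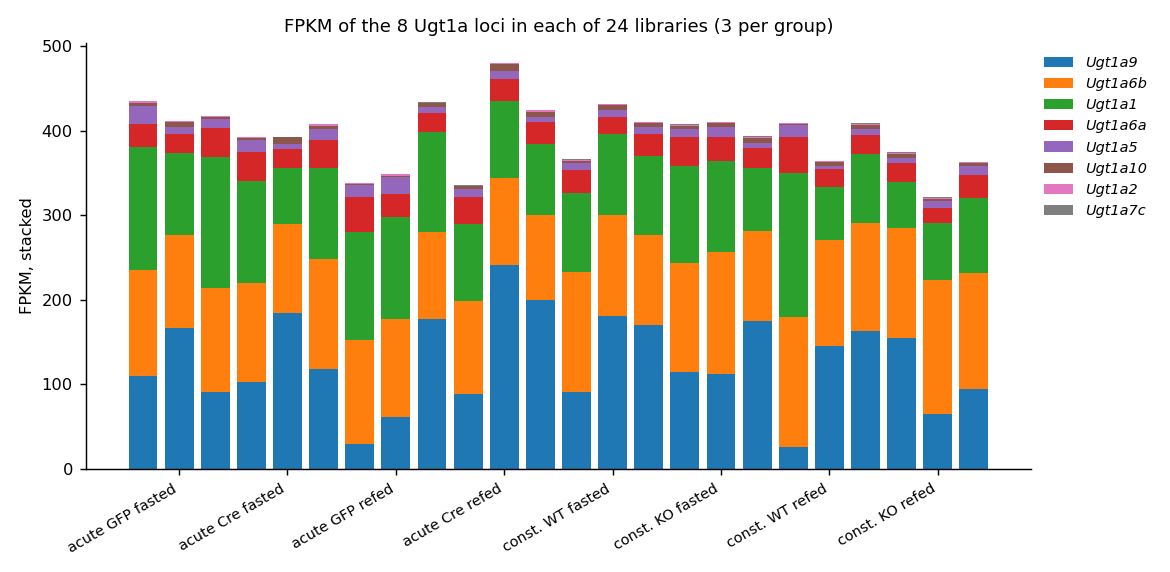
FPKM of the 8 Ugt1a loci stacked in each of the 24 libraries, in group order with 3 bars per group. The height of the stack stays between 321 and 480, while the Ugt1a9 part runs from 25.5 to 242.

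Genes that supply the conjugating reactions moved in a few cases. Of 32 tested genes for donor supply and other conjugation, 2 rose and 2 fell in the mean knockout effect, with a median of 0.02, where 3.14% of all genes were called. Nat8, an acetyltransferase acting on cysteine conjugates, rose by 0.87 ± 0.13 (SE; limma adjusted p = 0.000654) and Ugdh, which makes UDP-glucuronic acid, by 0.32 ± 0.08 (limma adjusted p = 0.0430). Ugp2, which makes UDP-glucose, fell by 0.30 (SE 0.08; limma adjusted p = 0.0403), and Slc27a5, a bile acid CoA ligase, by 0.26 (SE 0.05; limma adjusted p = 0.00831). Of 11 genes of export, uptake and conjugate cleavage none was called for it, with a median of -0.10. On refeeding 5 of the 32 were called, where 30.3% of all genes were: Nnmt and Glyat rose, and Nat2, Gclc and Slc27a5 fell. Gclc, which limits glutathione synthesis, fell by 0.36 (SE 0.09; limma adjusted p = 0.00636), and Nnmt, which methylates nicotinamide, rose by 0.62 ± 0.16 (limma adjusted p = 0.00634). Of the 11 genes of export, uptake and cleavage 5 were called on refeeding (30.3% of all genes), Slco1a1 and Gusb higher and Abcc2, Abcc6 and Abcc3 lower. Abcc2, the canalicular export pump for conjugates, fell by 0.32 (SE 0.07; limma adjusted p = 0.00246), and Gusb, which splits glucuronides, rose by 0.25 ± 0.05 (limma adjusted p = 0.00104).

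Among 23 regulators, Foxa3 rose and Stat5b fell in the mean knockout effect, by 0.38 ± 0.08 (SE; limma adjusted p = 0.0102) and by 0.19 (SE 0.05; limma adjusted p = 0.0493). Of 10 genes read as targets of CAR and PXR, 2 rose (Cyp2c55 and Aldh1a7) and 3 fell (Cyp2b10, Cyp2c37 and Cyp3a13). Cyp2b10 fell by 1.57 (SE 0.21; limma adjusted p = 0.000170). Of 10 NRF2 targets Me1 rose, and of 4 AHR targets none was called. Of 13 pericentral hepatocyte genes, 4 fell (Cyp2c38, Cyp27a1, Cyp2e1 and Glul). Of 15 male-biased genes all lay above 0 in this mean and 3 were called (Cyp4a12a, Cyp4a12b and Slc22a28), and of 13 female-biased genes none was called. By comparison, the male-biased genes above 0 were 14 acute fasted, 15 acute refed, 9 constitutive fasted and 4 constitutive refed. Between the GFP and WT controls 0 of the 15 lay above 0 in either state, with medians of -0.95 fasted and -1.26 refed. These lists hold few genes each, and the background of the knockout effect is 3.14% called. On refeeding 9 of the 23 regulators were called, where 30.3% of all genes were, 6 higher and 3 lower, among them Socs2 (0.97 ± 0.17; limma adjusted p = 0.000388) and Stat5b (-0.34 ± 0.05; limma adjusted p = 6.24e-05).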

How the data were processed

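Each of 24 deposited files gives 1 FPKM value per locus. Per the submitters' processing notes, the tools were HISAT2, Cufflinks and Cuffdiff and the build mm10; versions and strand handling are not given in the sources used here. Libraries came from a stranded mRNA kit, per the labels' protocols. FPKM was computed by the authors before deposit, total depth is unknown, and relative depth was read from the steps between low values. The files were joined on symbol and locus, and 14 loci marked failed were left out, none a member.

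The test was limma 3.58.1 (R 4.3.3) on log2(FPKM + 1), with a trended eBayes and 1 coefficient per group. Genes needed FPKM 1 or more in 3 fitted libraries, which left 10452 (acute), 10375 (constitutive) and 10682 (joint). Two-sided p-values were adjusted by Benjamini-Hochberg over every gene tested. Named were all called members, the 3 highest of each family, the smallest adjusted p where none was called, and called genes of lists; others were named after their values were seen. Members and lists were chosen with earlier results of these data known. The fits were tested on simulated data. Alternatives were median-of-ratios scaling, no filter, a pseudocount of 0.1, the replicate number as a block term, the 8 shallower acute libraries, each library left out, and, added after seeing the data, GFP fasted 1 and GFP refed 2 left out. Promoters are from RefSeq; shared windows were counted on GENCODE transcripts.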

Additional observations from a re-analysis of the deposited data

How the results depend on the processing

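The number of members called for the mean knockout effect was 6 (3.14% of all genes). It was 1 with no filter (1.37%), 1 with the 8 shallower acute libraries (1.72%) and 3 without GFP fasted 1 and GFP refed 2 (2.69%). With a replicate block it was 5 (2.99%), and with each library left out 1 to 6 (2.05% to 3.4%). For the mean refeeding effect it was 3 (30.3%), and 8 under median-of-ratios scaling (29.8%), where Gstk1, Gstm6, Gstt2, Gstz1 and Ugt3a2 joined, all lower. That scaling also gave 2 calls for acute refeeding in controls (5.45% of genes), 1 in acute knockouts (3.48%) and 1 between refed controls (0.964%), where there had been 0. Sult1e1 was called for refeeding in acute knockouts, as 1 member, without GFP fasted 1 and GFP refed 2 (4.9% of genes). With each library left out, calls ranged from 0 to 6 for acute deletion refed (0.0288% to 0.634% of genes) and 0 to 1 for acute refeeding in controls (2.81% to 5.56%). They ranged from 0 to 1 for constitutive refeeding in knockouts (0.689% to 7.15%) and 0 to 3 between refed controls (0.00937% to 2.34%). The causes were not tested. In the comparison for which a member was called, its difference never changed sign. In comparisons without a call it could, as for Ugt2b5 in constitutive refed livers (-0.13, and 0.01 without KO refed 2). In the acute model 5 of 18 same-numbered pairs of libraries correlated above 0.1, and 14 of 36 differently numbered pairs did. In the constitutive model it was 8 of 18 against 6 of 36, so whether replicate numbers pair samples there is not settled. The block changed no member's call apart from that of Ugt2b35. Over all genes it raised the calls for constitutive refeeding from 33 to 80 in controls and from 589 to 800 in knockouts. FPKM alone gives no counting error.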
